A study of Mus musculus with 6 samples.

Results

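The mRNAs described here are those of 4 Id genes (Id1, Id2, Id3 and Id4) and 6 Hes and Hey genes (Hes1, Hes5, Hes6, Hey1, Hey2 and Heyl), which encode helix-loop-helix repressors of transcription. They are 10 of the 43383 rows of the deposited expression table and were found by their symbols. The genes were picked with their difference between cortical layers already known, so their values and fold changes between layers are given as a description. No p-value is printed for these genes. Counts of those that passed the comparison of all rows are also given, and nothing is read from these counts. RNA-seq was performed on cortical astrocytes of male Aldh1l1-eGFP mice at 4 weeks of age, a transgenic line in which the Aldh1l1 promoter labels astrocytes with GFP. Layers II to IV and layers V and VI of the somatosensory area were dissected from each of 3 brains, and GFP-positive cells were sorted to give upper-layer astrocytes (ULAs) and deep-layer astrocytes (DLAs), with 3 libraries per group. All 6 libraries share the genotype and age, no treatment is given, and the GFP gate defines the cells by a single promoter. Layer I, the corpus callosum and the tissue around the border of layers IV and V had been cut away.

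Id proteins carry a helix-loop-helix domain without the basic stretch that contacts DNA. They pair with E proteins and keep these and their class II partners, such as proneural and Olig factors, off DNA. Id genes are known direct targets of bone morphogenetic protein (BMP) signaling through Smad proteins, a pathway that favors astrocytes over other neural fates. Hes and Hey proteins do bind DNA, carry an Orange domain and recruit Groucho corepressors. Most of them are switched on when the Notch intracellular domain joins RBPJ on their promoters, and Hes1 and Hes5 keep neural progenitors from becoming neurons and are also made by glia.

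Promoter sequences were available for 6 of the 10 genes in the RefSeq annotation of GRCm38.p6, and the 250 bases before the start are shown for the 3 Id genes among them, whose levels all differed between the layers, and for Hes5, the most abundant Hes gene. Capitals mark GGCGCC, a GC-rich Smad site, and TGGGAA or its reverse complement TTCCCA, the core of the RBPJ site. The windows lie at chr12:25096093-25096342 on the minus strand for Id2, at chr4:136143572-136143821 on the plus strand for Id3, at chr13:48260866-48261115 on the plus strand for Id4 and at chr4:154960673-154960922 on the plus strand for Hes5.
Id2: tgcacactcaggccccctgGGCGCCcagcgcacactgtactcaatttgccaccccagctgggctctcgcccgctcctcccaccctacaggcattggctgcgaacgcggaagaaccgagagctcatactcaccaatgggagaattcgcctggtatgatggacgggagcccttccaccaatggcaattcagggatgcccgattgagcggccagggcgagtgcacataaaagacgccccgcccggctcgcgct
Id3: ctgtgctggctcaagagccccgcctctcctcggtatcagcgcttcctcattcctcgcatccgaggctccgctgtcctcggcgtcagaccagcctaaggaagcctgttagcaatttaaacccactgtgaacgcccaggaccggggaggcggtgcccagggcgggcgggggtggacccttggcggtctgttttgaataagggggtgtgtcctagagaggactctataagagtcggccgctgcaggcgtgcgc
Id4: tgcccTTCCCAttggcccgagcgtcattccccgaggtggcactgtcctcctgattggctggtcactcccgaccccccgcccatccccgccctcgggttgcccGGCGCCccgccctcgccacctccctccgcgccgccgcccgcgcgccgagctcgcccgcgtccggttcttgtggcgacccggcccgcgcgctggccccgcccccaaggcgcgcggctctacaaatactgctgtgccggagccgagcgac
Hes5: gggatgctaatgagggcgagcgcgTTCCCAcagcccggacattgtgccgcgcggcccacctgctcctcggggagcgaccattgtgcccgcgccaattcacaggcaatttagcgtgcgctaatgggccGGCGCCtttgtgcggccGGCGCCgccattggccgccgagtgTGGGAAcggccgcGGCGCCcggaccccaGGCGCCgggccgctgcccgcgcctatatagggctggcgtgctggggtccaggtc
GGCGCC, which reads the same on both strands, matched 4 times in Hes5 and once each in Id2 and Id4, and it was present in 9.59% of the 32851 promoter windows of the same length. The RBPJ core, searched on both strands, matched 2 times in Hes5, once in Id4 and once in Hey2, against 21.6% of all windows. Id3 held neither motif, nor an E box (CANNTG, in 66.2% of windows) or an N box (CACNAG on either strand, in 36.7%). A single E box was found in Id2, in Hes5 and in Hey2, and a single N box in Id4, while the pair of windows listed for Hes6 held 3 E boxes in the first, and 1 E box and 1 N box in the second. The matches did not overlap each other, and they are occurrences of letters, not measured binding sites.

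The values are RPKM, read numbers corrected for mRNA length and library depth, so that levels can be set against each other between genes as well as between libraries. The steps of the RPKM values put the depth at 24.4 to 26.7 M reads in ULAs and at 19.7 to 29.6 M reads in DLAs, with the DLA library of brain 2 the shallowest. The filter was a mean of at least 1 RPKM, which each of the 10 genes and 13999 rows in all passed. They were compared by limma on log2(RPKM + 1) in a model with terms for brain and layer. A row was called at a Benjamini-Hochberg adjusted p under 0.05. In all, 228 rows (1.63%) were called, 100 (0.714%) higher in ULAs and 128 (0.914%) higher in DLAs, a split that turned to 138 and 103 under quantile normalization. The 10 astrocyte markers summed to between 10685.4 and 12232.6 RPKM in every library, led by Aldoc and Slc1a3. Within this sum, 3 markers were higher in DLAs in all brains and 3 were lower in all brains. The only one called was Gfap, at a mean of 11.7 RPKM in ULAs and 23.5 RPKM in DLAs (adjusted p = 0.00556, limma). Slc1a3 was at 2538.5 and 1893.0 RPKM (adjusted p = 0.0554).

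The Id genes were higher in DLAs than in ULAs. For each of the 4, every DLA library lay above every ULA library, as in 9.27% of all rows tested. The highest ratio was that of Id1. Differences are given as DLA minus ULA on the log2(RPKM + 1) scale, with the SE of the limma fit. This scale understates the change of low values.
Id1 lies on chromosome 2 from 152562010 to 152563146 in mm9, the build in which this and the next genes are placed, on the plus strand, with 2 exons and an mRNA of 911 bases. Its RPKM was 3.44, 3.42 and 4.31 in the ULAs of brains 1, 2 and 3 and 32.29, 40.25 and 59.07 in the DLAs of the same brains. The ULA values sat within a narrow band, resting on 77, 80 and 105 reads, and every DLA value lay far above it. The deep/upper ratio was 9.39, 11.8 and 13.7 in the 3 brains, with a mean of 11.6 ± 2.16 (SD, n = 3), and the log2 difference was 3.21 (SE 0.14).
Id3, whose product resembles that of Id1, lies on chromosome 4 from 135699737 to 135701307 with 3 exons. It was measured at 126.55, 112.33 and 139.62 RPKM in ULAs and at 485.71, 542.18 and 561.37 RPKM in DLAs, so the lowest DLA library stood well above the highest ULA library. The ratio was 3.84, 4.83 and 4.02 across brains (4.23 ± 0.526), with a log2 difference of 2.06 (SE 0.10). For both Id1 and Id3 the gap between the layer means was larger than the SD within either layer.
Id2, on the minus strand of chromosome 12 from 25778664 to 25780957 with 3 exons, was the most abundant of the 10 mRNAs in both layers. Its RPKM was 258.06, 412.85 and 439.68 in ULAs and 722.17, 951.4 and 941.95 in DLAs. Brain 1 was lowest in both layers, and the ratio was highest in that brain (2.80, against 2.30 and 2.14 in brains 2 and 3, with a mean of 2.42 ± 0.342). The log2 difference was 1.26 (SE 0.10).
Id4, on chromosome 13 from 48356796 to 48359405 with 3 exons, was the Id gene with the smallest difference. Its ULA values were close together at 17.48, 17.58 and 19.78 RPKM, whereas its DLA values were 41.66, 21.63 and 42.12 RPKM. The DLA library of brain 2 was only slightly above the ULA libraries, and the ratio in that brain was 1.23, against 2.38 and 2.13 in brains 1 and 3 (1.91 ± 0.606). The log2 difference was 0.85 (SE 0.16), and it was 1.13 without brain 2. Id4 shares 171 exon bases, 10.3% of its mRNA, with a row on the other strand (ENSMUSG00000086888), and since the library kit did not mark strand the reads there could come from either.

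**Figure D1:**
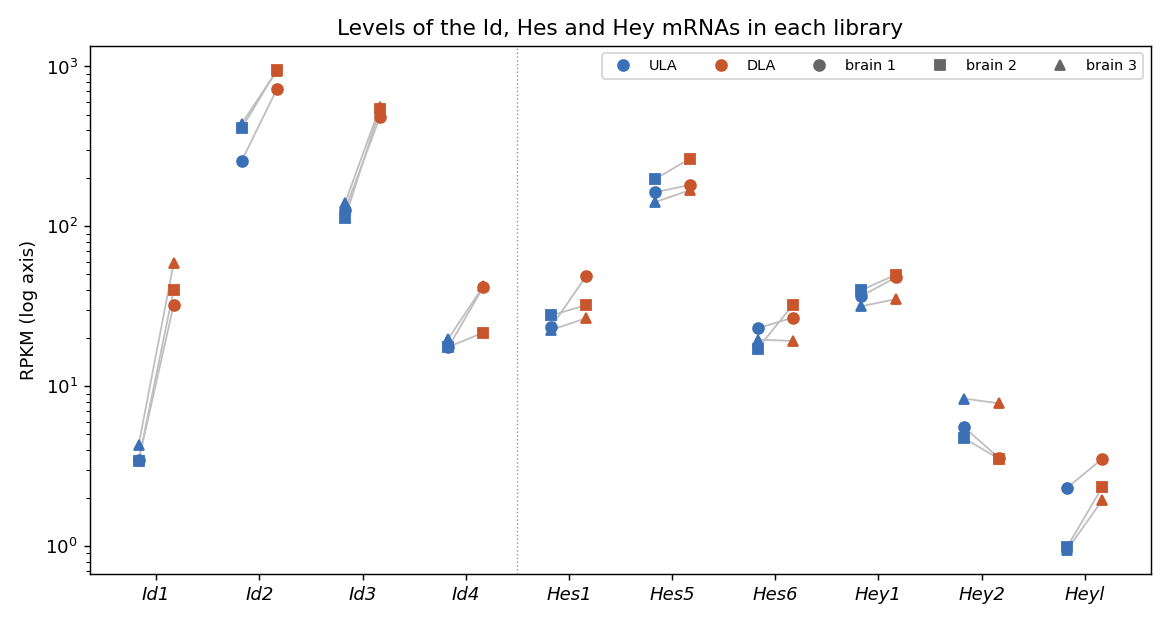
RPKM (log axis) of the 4 Id genes, left of the dotted line, and of the 6 Hes and Hey genes in each of the 6 libraries, with ULAs in blue, DLAs in red, a symbol for each brain and lines that join the layers of a brain. The red points of Id1 (32.29 to 59.07) are far above its blue points (3.42 to 4.31), and the Hes and Hey points of the layers overlap.

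The rank of the Id genes by ratio was not that of their levels. The log2 difference of Id1 exceeded that of Id3 by 1.15 ± 0.307 (SD over the 3 brains), and that of Id3 exceeded that of Id2 by 0.80 ± 0.315, with the same order in each brain. Id2 exceeded Id4 by 0.41 ± 0.453, less than the spread, and in brain 3 by 0.044. Since the 4 genes changed by unequal factors, the makeup of the Id mRNA pool differed between layers. Summed over the 4 genes, Id mRNA was 518.4 ± 101.8 RPKM in ULAs (405.53 to 603.39) and 1480.6 ± 173.9 RPKM in DLAs (1281.83 to 1604.51), a ratio of 3.16, 2.85 and 2.66 in brains 1, 2 and 3. Id2 made up 63.6% to 75.6% of that sum in ULAs and 56.3% to 61.2% in DLAs, and Id3 20.6% to 31.2% and 34.9% to 37.9%. These shares did not overlap between layers. Id1 stayed a minor species, with 0.626% to 0.848% in ULAs and 2.52% to 3.68% in DLAs. Id4 went from 3.22% to 4.31% in ULAs to 1.39% to 3.25% in DLAs, ranges that overlap slightly.

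The Hes genes showed smaller differences, and the values of the layers overlapped for each of them. Hes5, on chromosome 4 from 154335032 to 154336480 with 3 exons, was the dominant Notch effector mRNA of both groups. Its RPKM was 163.17, 196.41 and 141.45 in ULAs and 181.24, 264.46 and 168.12 in DLAs. The differences between brains were as large as those between layers, yet within each brain the DLA value was the higher one, by a ratio of 1.11, 1.35 and 1.19 (1.22 ± 0.120, log2 difference 0.28, SE 0.10). Hes5 shares 433 exon bases, 34.0% of its mRNA, with a row on the other strand (ENSMUSG00000092483). That row was measured at 100.47 to 135.61 RPKM in ULAs and 115.93 to 205.52 RPKM in DLAs, between 0.690 and 0.777 of the Hes5 value in every library, and the reads of the shared stretch cannot be told apart.
Hes1, the broadly expressed Notch and BMP responsive member, lies on chromosome 16 from 30065443 to 30067882 with 4 exons. It was at 23.59, 27.78 and 22.52 RPKM in ULAs and at 49.11, 32.18 and 26.69 RPKM in DLAs. The DLA library of brain 1 stood apart with a ratio of 2.08, whereas brains 2 and 3 gave 1.16 and 1.19. The log2 difference was 0.49 (SE 0.16), and 0.22 without brain 1.
Hes6, on the minus strand of chromosome 1 from 93308060 to 93309799 with 4 exons, encodes a divergent member known to oppose Hes1. Its RPKM was 23.00, 17.21 and 19.60 in ULAs and 26.88, 32.19 and 19.18 in DLAs. It was the only gene of the 10 whose direction differed between brains, with ratios of 1.17, 1.87 and 0.979. The log2 difference was 0.35 (SE 0.16), 0.09 without brain 2 and 0.54 without brain 3.

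The Hey genes covered a range of levels and were the only group with a member lower in DLAs. Hey1, a Notch target expressed in neural precursors and vessels, lies on the minus strand of chromosome 3 from 8663359 to 8667038 with 5 exons. It was at 36.50, 39.80 and 31.57 RPKM in ULAs and at 48.01, 49.85 and 35.08 RPKM in DLAs. Every brain was higher in DLAs, by ratios of 1.32, 1.25 and 1.11, while brain 3 was the lowest in both layers. The log2 difference of 0.28 (SE 0.10) was close to that of Hes5 (Hes5 minus Hey1, −0.0087 ± 0.197 over the brains).
Hey2, on the minus strand of chromosome 10 from 30552165 to 30562589 with 5 exons, had an RPKM of 5.53, 4.73 and 8.36 in ULAs and of 3.56, 3.51 and 7.82 in DLAs. It was lower in DLAs in all 3 brains, with ratios of 0.644, 0.742 and 0.935, the reverse of Hey1. In both layers brain 3 was above the other brains by more than the layers differed, and the groups overlapped (log2 difference −0.32, SE 0.14). The log2 difference of Hey1 exceeded that of Hey2 by 0.60 ± 0.340, and it did so in each brain.
Heyl, on chromosome 4 from 122910799 to 122927113 with 5 exons, was the least abundant of the 10 genes. It was at 2.32, 0.99 and 0.95 RPKM in ULAs and at 3.52, 2.34 and 1.94 RPKM in DLAs, from 115 to 424 reads per library. The ratio was 1.52, 2.36 and 2.04 (1.97 ± 0.427), with a log2 difference of 0.59 (SE 0.15), or 0.90 with a pseudocount of 0.1. The DLA value of brain 3 was below the ULA value of brain 1, so the groups overlapped although each brain was higher in DLAs.
Summed over the 6 genes, Hes and Hey mRNA was 255.2 ± 31.2 RPKM in ULAs and 318.6 ± 63.1 RPKM in DLAs. Hes5 made up 63.0% to 68.5% of it in ULAs and 58.0% to 68.8% in DLAs, so that, unlike the Id pool, the makeup of this pool overlapped between layers for its leading member.

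Counted together, 8 of the 10 genes were higher in DLAs in all 3 brains, as were 23.2% of all rows tested. The 4 Id genes were those in which every DLA library lay above every ULA library, as in 9.27% of rows, and 0 of the 6 Hes and Hey genes did so. In 0 of the 10 genes did every ULA library lie above every DLA library, as in 6.59% of rows. By limma, 4 of the 4 Id genes were called and 0 of the 6 Hes and Hey genes were, beside 1.63% of all rows. At an unadjusted p under 0.05, 5 of the 6 Hes and Hey genes passed, beside 16.4% of rows. Nothing is read from these counts, since the genes were chosen on this contrast. The median log2 difference was 1.66 for the Id genes, 0.32 for the Hes and Hey genes and 0.027 for all rows tested. With the brain left out of the model, the calls of Id2 and Id4 were lost and 2 of the 4 Id genes, Id1 and Id3, were called. Longer mRNAs tended to a higher upper/deep ratio in each brain (Spearman's rho of 0.21, 0.37 and 0.10 across all rows tested, where genes are not independent replicates), and the Id mRNAs are 911 to 1660 bases long and the Hes mRNAs 1273 to 1451 bases. After subtraction of that length trend the log2 differences were 3.09, 1.15, 1.94 and 0.75 for Id1 to Id4, and 0.38, 0.16 and 0.24 for Hes1, Hes5 and Hes6. The Hey genes, with mRNAs of 2205 to 4532 bases, had 0.22 (Hey1), −0.36 (Hey2) and 0.65 (Heyl).

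**Figure D2:**
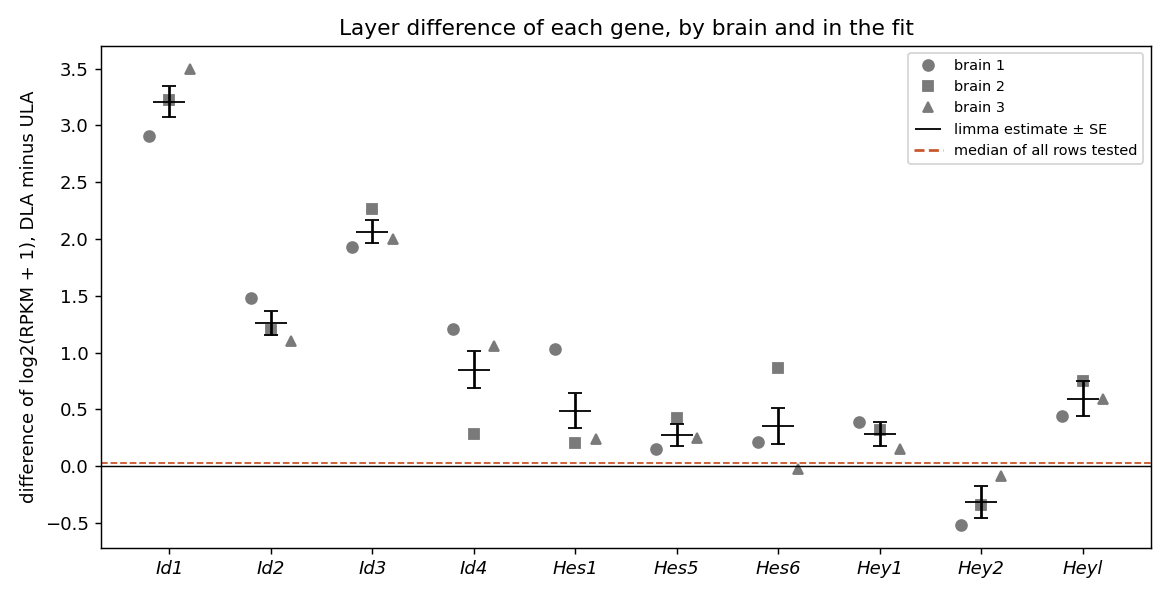
Difference of log2(RPKM + 1), DLA minus ULA, of each of the 10 genes, with a gray symbol per brain, a black bar for the limma estimate with its SE, and a dashed line at the median of all rows tested (0.027). Id1, Id3 and Id2 have the highest values, Id4 and Hes1 each have a brain apart from the others, and Hey2 alone has all 3 brains below 0.

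The order of the levels was not the same in both layers. In ULAs the order by mean RPKM was Id2, Hes5, Id3, Hey1, Hes1, Hes6, Id4, Hey2, Id1 and Heyl. The values of neighbors in this order were apart, except that those of Hes1 overlapped with those of Hes6, and those of Hes6 with those of Id4. In DLAs the order was Id2, Id3, Hes5, Hey1, Id1, Hes1, Id4, Hes6, Hey2 and Heyl. There Id2, Id3 and Hes5 were each apart from the next, Hey1, Id1, Hes1, Id4 and Hes6 overlapped with their neighbors, Hes6 was apart from Hey2, and Hey2 overlapped with Heyl. Id3 thus stood below Hes5 in ULAs and above it in DLAs. Id1, which was below Hey2 in ULAs, lay among Hey1, Hes1 and Id4 in DLAs. The spread within a layer was widest for Heyl in ULAs, with a highest value 2.44 times the lowest, and narrowest for Id4 in ULAs, at 1.13 times.

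The sorted libraries held low levels of mRNAs used as markers of other cells, and some of these moved with the layers as the Id genes did. Whether these mRNAs came from other cells or from the sorted astrocytes was not tested. The 8 oligodendrocyte markers, led by Cnp and Mbp, summed to 76.08, 66.75 and 110.9 RPKM in ULAs and to 125.16, 140.69 and 147.76 RPKM in DLAs, without overlap, and 7 of the 8 were higher in DLAs in all brains. By limma, 5 of the 7 that could be tested were higher in DLAs, beside 0.914% of all rows. Mbp, for one, was at 14.95, 10.5 and 15.87 RPKM in ULAs and at 35.24, 37.97 and 36.54 RPKM in DLAs. The part of these cells in the Id values was not tested. Markers of oligodendrocyte precursors were near 0, summing to between 0.52 and 1.04 RPKM over 5 genes.
Haemoglobin rows Hbb-b1 and Hbb-b2, which share reads, were listed at 0 in ULAs and at 1.91 to 15.57 RPKM in DLAs, highest in brain 3, the brain in which Id1 was also highest in both layers. With Alas2, the blood cell markers summed to 0.81 to 1.07 RPKM in ULAs and 4.7 to 32.61 RPKM in DLAs. The ULA sum was that of Alas2 alone. Beta-s, a haemoglobin row outside this sum, was at 0.45 ± 0.495 RPKM in ULAs and 21.6 ± 19.5 RPKM in DLAs. The part of these rows in the Id values was not tested. Endothelial markers, of interest because Hes1, Hey1, Hey2 and Heyl are also vascular genes, summed to between 2.33 and 3.48 RPKM in ULAs and to 7.73, 1.41 and 3.22 RPKM in DLAs over 10 genes, with Kdr and Cdh5 at 0.03 RPKM or less. The highest sum was in the DLA library of brain 1, where Hes1 was highest, and its part in that value was not tested. Of the 8 pericyte and smooth muscle markers, led by Pdgfrb and Rgs5, the sum was 16.08 to 23.14 RPKM in ULAs and 12.01 to 19.13 RPKM in DLAs, with Abcc9 at 0, and the 6 meningeal fibroblast markers, led by Col1a1 and Col1a2, summed to 3.07 to 4.1 RPKM and 4.95 to 6.27 RPKM, with Col3a1 and Slc6a13 at 0. Neuron markers, led by Snap25, summed to 4.9 to 7.29 RPKM over all libraries. Microglia markers, led by P2ry12, summed to 12.94 to 13.82 RPKM in ULAs and 8.58 to 11.7 RPKM in DLAs. These sums did not overlap and were lower in DLAs, unlike the Id genes. In such bulk samples, fewer cells that make an mRNA and less of it per cell cannot be told apart.

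**Figure D3:**
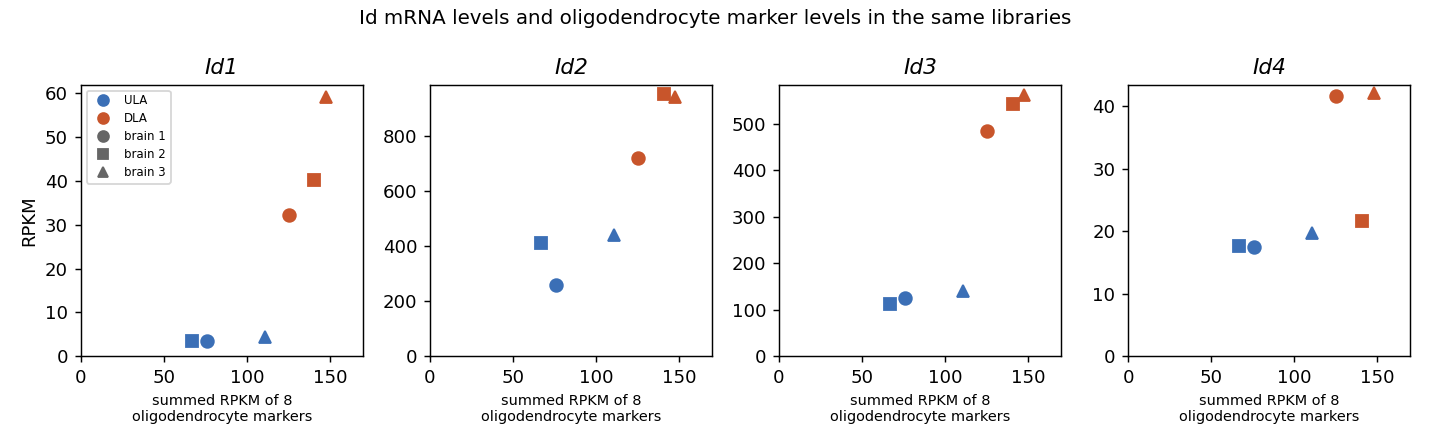
RPKM of Id1, Id2, Id3 and Id4 (vertical axes) against the summed RPKM of 8 oligodendrocyte markers (horizontal axes) in the 6 libraries, with ULAs in blue, DLAs in red and a symbol per brain. Both the Id values and the sums of DLAs lie above those of ULAs, the closest sums being 110.9 (ULA, brain 3) and 125.16 (DLA, brain 1).

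The genes that act upstream of Id genes were next counted in the same limma comparison, from lists written with earlier results of these data known. In all pathway lists, 4 genes were called, Chrdl1 and Eogt higher in ULAs and Aes and Ctbp1 higher in DLAs. Of 9 BMP ligands, 8 had a mean RPKM under 1 and Bmp7 was tested, at 35.0 ± 9.06 RPKM in ULAs and 29.5 ± 11.2 RPKM in DLAs (SD, n = 3, adjusted p = 0.346, limma). Of the BMP receptors and Smads, 0 of the 12 tested were called by limma, with 2 at an unadjusted p under 0.05. Over all rows 1.63% were called and 16.4% had an unadjusted p under 0.05, and these shares stand beside the count of each list below. Bmpr1b, a type I receptor, was at 35.1 ± 3.07 and 29.2 ± 4.45 RPKM (adjusted p = 0.359) and Rgma, a BMP coreceptor, at 19.1 ± 3.65 and 20.3 ± 2.55 RPKM (adjusted p = 0.735). Among 8 antagonists tested, Chrdl1, which binds BMPs outside the cell, was called, with 89.5 ± 8.27 RPKM in ULAs and 20.1 ± 3.91 RPKM in DLAs (log2 difference −2.11, SE 0.11, adjusted p = 2.33e-05). The most abundant of the other antagonists, Fstl1, was at 25.1 ± 3.68 and 25.5 ± 3.25 RPKM (adjusted p = 0.931).
Of 6 further genes known as targets of BMP or Smad signaling, 3 passed the filter and 0 were called by limma, with 1 at an unadjusted p under 0.05. Msx1 was at 3.00 ± 0.117 RPKM in ULAs and 2.01 ± 0.456 RPKM in DLAs (adjusted p = 0.21), and Smad6, an inhibitory Smad, at 1.18 ± 0.040 and 1.51 ± 0.445 RPKM (adjusted p = 0.612). Smad7, another inhibitory Smad, lay under the filter with 0.637 ± 0.058 and 0.623 ± 0.081 RPKM. The other genes under it, Atoh8 and Msx2, were singled out after their values were seen and have no test. Atoh8 was at 0.03, 0.13 and 0 RPKM in ULAs (2, 8 and 0 reads) and at 0.33, 0.66 and 0.93 RPKM in DLAs (21, 31 and 65 reads). Msx2 was at 0.60, 0.64 and 0.89 RPKM in ULAs (32, 35 and 51 reads) and at 0, 0.04 and 0.06 RPKM in DLAs (0, 2 and 4 reads). The groups did not overlap for either gene, with Atoh8 on the side of the Id genes and Msx2 on the other.

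The genes upstream of Hes and Hey showed a single call, where 1.63% of all rows were called. Of the Notch ligands and receptors, 0 of the 7 tested were called by limma, with 1 at an unadjusted p under 0.05. Dner, a noncanonical ligand, was at 133.4 ± 11.5 RPKM in ULAs and 127.1 ± 10.3 RPKM in DLAs (adjusted p = 0.761), and Cntn1, a cell adhesion protein described as a Notch ligand, at 38.0 ± 7.34 and 40.2 ± 1.41 RPKM (adjusted p = 0.76). Dlk1, another noncanonical ligand, was under the filter and was singled out after its values were seen, at 0.13, 0.14 and 0.11 RPKM in ULAs and 0.67, 0.64 and 0.71 RPKM in DLAs. Of 25 genes of Notch processing and nuclear function, Eogt was called, with 125.8 ± 13.8 RPKM in ULAs and 41.8 ± 4.32 RPKM in DLAs (log2 difference −1.57, SE 0.11, adjusted p = 9.92e-05). Eogt encodes a glycosyltransferase that modifies the extracellular part of Notch. By the mean over both layers Dtx3 was the most abundant gene of that list, although in ULAs it was below Eogt. Dtx3 was at 87.3 ± 2.48 and 99.6 ± 19.6 RPKM (adjusted p = 0.476). Without brain 3, Dtx1 and Rfng were called as well, with adjusted p-values of 0.00106 and 0.0158 by limma. In that setting 426 rows in all were higher in ULAs and 687 in DLAs, against 100 and 128 with every brain.

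The partners of the 2 families were counted last. Of 23 E proteins and class II factors, 18 had a mean RPKM under 1, 10 of them listed at 0, and 0 of the 5 tested were called by limma, with 2 at an unadjusted p under 0.05. Tcf4, an E protein that Id proteins bind, was at 107.6 ± 7.54 RPKM in ULAs and 95.8 ± 8.77 RPKM in DLAs (adjusted p = 0.451), and Olig1 at 84.6 ± 5.60 and 108.9 ± 19.7 RPKM (adjusted p = 0.235). Olig1 and Olig2 were called without brain 3, where 426 rows in all were higher in ULAs and 687 in DLAs. Olig2 was also called without brain 2, where these numbers were 111 and 182. Olig2 was at 5.18, 4.91 and 5.33 RPKM in ULAs and 19.06, 5.86 and 9.06 RPKM in DLAs, where brain 1 stood apart as it did for Hes1. Of the other repressors with an Orange domain, Hes2, Hes3 and Helt were listed at 0 and 0 of the 3 tested were called by limma, with 0 at an unadjusted p under 0.05. Bhlhe40 was at 86.4 ± 16.9 and 100.5 ± 33.9 RPKM (adjusted p = 0.535) and Hes7, the Hes gene of the segmentation clock, at 2.67 ± 0.834 and 2.82 ± 0.194 RPKM (adjusted p = 0.846).
Of the 14 corepressors tested, 2 were called higher in DLAs, beside 0.914% of all rows. Aes, a short Groucho-related protein, rose from 54.98, 36.65 and 56.71 RPKM in ULAs to 96.31, 60.23 and 88.03 RPKM in DLAs (log2 difference 0.71, SE 0.10, adjusted p = 0.00736, limma). Ctbp1, a corepressor that dimerizes to recruit histone-modifying enzymes, was at 20.18, 7.35 and 24.77 RPKM in ULAs and 45.26, 10.14 and 36.47 RPKM in DLAs (log2 difference 0.69, SE 0.14, adjusted p = 0.0464). For both, brain 2 was lowest in each layer, and neither was called in a model that ignored the pairing by brain (adjusted p of 0.335 for Aes and 0.688 for Ctbp1). Hdac2, a histone deacetylase, was at 25.0 ± 2.02 and 27.9 ± 4.11 RPKM (adjusted p = 0.511). Ctbp1 also lost its call without brain 1 (adjusted p = 0.398), under quantile normalization (0.055), after the length correction (0.0997) and without the intensity trend (0.103). With no filter on low values neither Aes (0.285) nor Ctbp1 (0.421) was called.

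**Figure D4:**
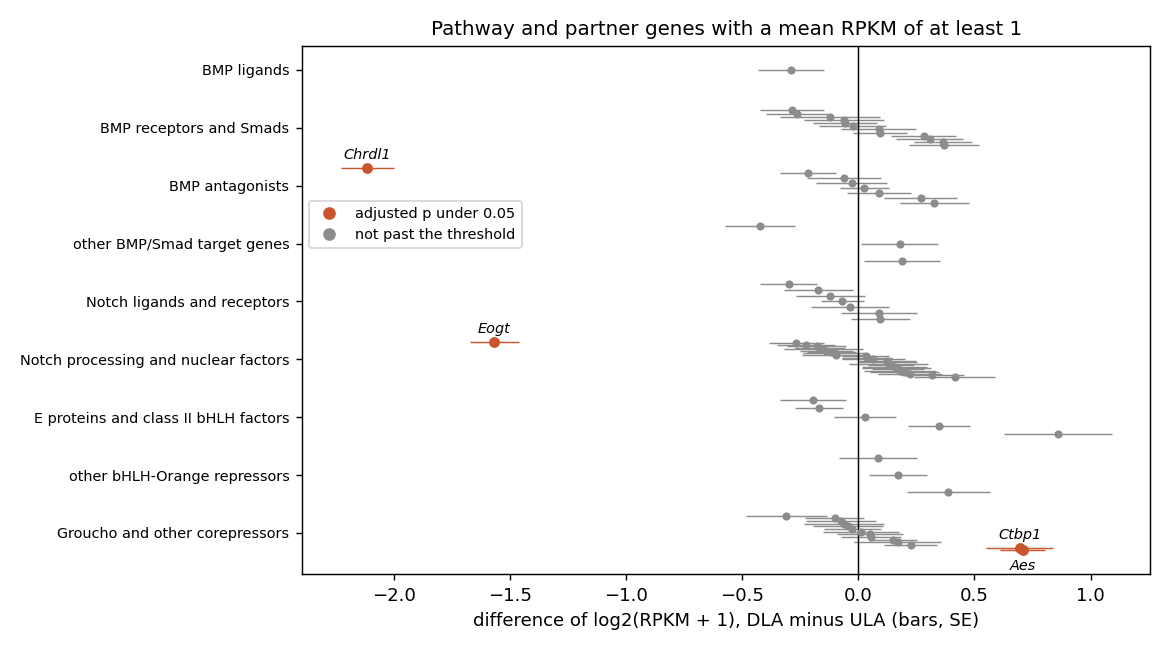
Difference of log2(RPKM + 1), DLA minus ULA, with its SE, of each tested gene in 9 lists of pathway and partner genes. Red points passed an adjusted p under 0.05 (Chrdl1, Eogt, Aes and Ctbp1), and the gray points did not.

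The genes whose layer difference was most like that of an Id gene were found among 7906 RefSeq rows that reached a mean of 5 RPKM, as the root mean square distance of the 3 per-brain log2 differences. For Id2 these were B3galt2, Padi2 and Snord19, at distances of 0.088, 0.21 and 0.24. For Id3 the first was Pdgfd (0.47), followed by Mbp (0.71), a myelin gene. For Id1 no row was close, the nearest being Beta-s, a haemoglobin gene, at 0.61, followed by Pdgfd at 1.32 and Mbp at 1.88. Likeness over 3 brains is a description only.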

How the data were processed

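RNA was prepared from GFP-positive astrocytes of the upper and deep layers of 3 brains, reverse-transcribed and amplified (SMART-Seq v4), turned into Nextera XT libraries and sequenced as single reads on an Illumina HiSeq instrument. The authors deposited 1 table of RPKM values with mRNA lengths. Per the submitters' processing notes, bcl2fastq 1.8.4, CASAVA 1.8.2 and the genome build mm9 were used, and the counting program and annotation are not given in the sources used here. The values are cut to 2 decimals. In rows of up to 500 bases, from 99.95% to 100% of the low values above 0, once the division by length was undone, equal to the second decimal a whole number of reads at 1 depth per library, which gives each library's depth, and read numbers serve for precision only and cover counting error only.

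Rows that reached a mean of 1 RPKM were compared on log2(RPKM + 1) with limma 3.58.1 in R 4.3.3 (2-sided, intensity trend, brain and layer as terms), after the paired test of the study. p-values were adjusted by the Benjamini-Hochberg method over all 13999 rows. Replicate numbers were taken as brains, since the study compared the layers within brains and same-numbered libraries shared their deviations from the group means (the correlation across genes was 0.42, 0.33 and 0.34, and between different numbers −0.20 to −0.16). The fit was tested on simulated data.

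The genes and all lists were chosen with earlier results of these data known. Named are the 10 genes; of each pathway list, the called genes and the 2 tested genes with the highest mean RPKM; the 3 rows nearest to Id1, Id2 and Id3; and the leading markers. A single gene is not reported here and is left out of the sums and counts of its list. Genes named outside this rule are stated as such, or were named where a setting or a pattern shared with a named gene touched them. The alternatives were no brain term, no filter, a filter at a mean of 5 RPKM, a pseudocount of 0.1, quantile normalization, median centring, a loess correction for mRNA length (span 0.5), no intensity trend, and each brain left out. Tables and figures were made with Python 3.11.15, pandas 2.3.3, numpy 2.4.6 and matplotlib 3.10.9.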

Additional observations from a re-analysis of the deposited data

How the results depend on the processing

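Of 109 fold changes of the 10 genes under 11 alternative settings, 0 reversed, 9 lost the call and 2 gained it. Leaving out the brain term or the intensity trend, or changing the filter, does not alter a fold change. Under those settings a reversal was not possible, and the other settings reuse the same libraries. With no replicate block, that is without the brain as a term, 23 rows were higher in ULAs and 18 in DLAs (100 and 128 with it), and the calls were 2 of 4 for the Id genes and 0 for the corepressors. With no filter on low values 27963 rows were tested by limma, 0 were called in either direction against 2799 at an unadjusted p under 0.05, and the calls of the Id genes, BMP antagonists, Notch processing genes and corepressors were each 0. Without the intensity trend 65 and 79 rows were called, and after the length correction 76 rows were higher in DLAs. The corepressors had 1 call under quantile normalization, after the length correction and without the trend, and Id4 was not called under these 3 settings. With 1 brain left out in turn, 104 to 426 rows were higher in ULAs and 126 to 687 in DLAs, the highest being without brain 3. The same gave 4 to 4 calls for the Id genes, 0 to 2 for the Hes and Hey genes (Hes1 and Hes6, without brain 3), 1 to 3 for Notch processing, 0 to 2 for E proteins and class II factors and 1 to 2 for corepressors. The cause of these changes was not tested. Nothing is read from the calls or directions of the 10 genes under any setting, since they were chosen on this contrast. With 3 brains, reads limit Id1 in ULAs (77 to 105 reads) and Heyl (115 to 424 reads) most.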

Other observations

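Several mRNAs commonly used to tell cortical layers or cell types apart were also measured in the libraries in which the Id, Hes and Hey values were obtained. Of the 4 upper-layer neuron markers, Rorb was at 75.98 to 120.66 RPKM over the 6 libraries and Cux1 at 8.51 to 12.1 RPKM, and of the 4 deep-layer neuron markers Bcl11b was listed at 0 and Fezf2 was at 3.32 to 8.97 RPKM. The summed level was 119.76 to 123.12 RPKM in ULAs and 86.63 to 129.85 RPKM in DLAs for the first list and 3.96 to 7.88 RPKM and 4.38 to 9.57 RPKM for the second, and both ranges overlapped between the layers. In the DLA library of brain 1, the values of Hes1 (49.11 RPKM) and Olig2 (19.06 RPKM) were the highest of the 6 libraries, and in the DLA library of brain 2 that of Id4 (21.63 RPKM) was the lowest of the DLAs.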
